A study of Rattus norvegicus with 129 samples.

Results

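The genes described here are 9 markers of Kupffer cells and other macrophages, read in rat liver: Cd68, Cd163, Clec4f, Csf1r, Aif1, C1qa, C1qb, C1qc and Cd14. All probe sets whose annotation names one of these genes alone were taken. That gave 12 probe sets for 6 genes among 8740 tested on the older array, 9 for 8 genes among 15866 on the second array and 10 for all 9 genes among 31042 on the largest array. The older array carried no probe set named for Cd68, Cd163 or C1qa, and the second none for Cd163. No probe set named a marker together with another gene.

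The series held 129 arrays in 31 groups from 5 studies, 1 rat per array. In the study of phenobarbital (PB, an activator of the nuclear receptor CAR) and pregnenolone-16-alpha-carbonitrile (PCN, an activator of rat PXR), male and female Sprague-Dawley rats received 100 mg/kg of either compound or vehicle (methylcellulose with Tween 80) by gavage, with 5 rats per group. A single dose was followed by 6 h or 24 h, and a course of 5 daily doses by 24 h, before the liver was taken. In the D3T study, 4 female Sprague-Dawley rats aged 4 weeks ate a diet with 600 mg/kg of 3H-1,2-dithiole-3-thione (D3T, an activator of NRF2) and 4 ate the control diet. Both studies used the older array, as did 1 more in which 60-day-old female Sprague-Dawley rats were gavaged daily for 3 weeks with perfluorooctane sulfonate (PFOS, 5 mg/kg) or Tween-20 vehicle, 2 rats each. On the largest array were 10-week-old male Sprague-Dawley rats given perfluorooctanoic acid (PFOA, 20 mg/kg/day, as ammonium salt), PFOS (10 mg/kg/day, as potassium salt) or Alkamuls EL-620 vehicle, 3 rats each. On the second array were male Wistar Hanover rats given Wy-14643 (a PPARα agonist, 60 mg/kg/day) or carboxymethyl cellulose for 1, 3 or 7 days, 3 rats each. The labels used here give no duration for D3T or for the PFOA and PFOS doses of the males, and no dose for the Wy-14643 rat 06.

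Kupffer cells are the resident macrophages of the liver sinusoids, where they take up particles, bacterial products and worn red cells. Their survival depends on signalling through CSF1R. They are also a main source of C1q, the recognition unit of the classical complement pathway, which is built from A, B and C chains encoded by C1qa, C1qb and C1qc. Clec4f encodes a galactose-binding C-type lectin that marks Kupffer cells in rodents, while Aif1, Cd68 and Csf1r are used by macrophages of many tissues and Cd14 is also made by hepatocytes. These are whole-liver RNA measurements, so fewer cells of a type and less RNA per cell cannot be told apart.

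Clec4f and C1qb are the marker genes that varied most closely together in the PB and PCN study, and C1qa is the second C1q chain named in the Wy-14643 result, so their promoters are shown. The RefSeq promoter table (build GRCr8) listed 7 of the 9 markers, all but Aif1 and C1qc. The 250 bases before each gene's start are printed 5′ to 3′ on the gene's own strand, which is the minus strand in all 3. Capitals mark GAGGAA or its reverse complement TTCCTC, the core of the PU box bound by the macrophage factor PU.1.
Clec4f, chr4:117696408-117696657: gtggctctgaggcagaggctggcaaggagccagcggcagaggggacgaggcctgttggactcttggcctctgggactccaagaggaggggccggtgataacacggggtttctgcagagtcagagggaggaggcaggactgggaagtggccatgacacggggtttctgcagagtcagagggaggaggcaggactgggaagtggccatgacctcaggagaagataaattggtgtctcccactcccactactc
C1qb, chr5:154407828-154408077: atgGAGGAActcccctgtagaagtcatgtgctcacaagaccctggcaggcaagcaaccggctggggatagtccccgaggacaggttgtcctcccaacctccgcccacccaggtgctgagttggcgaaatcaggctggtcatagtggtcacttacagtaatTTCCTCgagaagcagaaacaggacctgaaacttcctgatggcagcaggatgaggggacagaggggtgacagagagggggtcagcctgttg
C1qa, chr5:154419934-154420183: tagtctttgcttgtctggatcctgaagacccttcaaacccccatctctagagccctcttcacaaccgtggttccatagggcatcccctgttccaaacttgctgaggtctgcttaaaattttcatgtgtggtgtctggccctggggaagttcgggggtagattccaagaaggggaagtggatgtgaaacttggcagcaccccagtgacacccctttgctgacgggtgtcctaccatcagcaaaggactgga
The C1qb window holds the letters at 2 places, starting 247 and 90 bases before the gene's start, and the Clec4f and C1qa windows hold none. Of the 7 listed markers 4 have the letters in this window (C1qb, Cd14, Cd68 and Csf1r), as do 23.3% of all 33469 promoters of this length in the table. The promoter table sets its own starts. By the RefSeq gene coordinates, the Cd14 window lies inside the gene and the Csf1r window mostly so. The letters of Cd14 and Csf1r are therefore not shown to lie before the gene. A match of letters is a description of the sequence and shows no binding.

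Values are intensity per probe set. Except where stated, they are given as log2(normalised intensity + 16), so that 4.00 is the floor reached by any value at or under 0, and all differences are on this log2 scale. A probe set counted as changed where its limma p was under 0.05 after Benjamini-Hochberg adjustment across every probe set tested on that array type. Probe sets differ in brightness for reasons other than RNA amount, so levels were compared between groups within a probe set and never between probe sets. Summed levels of a list add the intensities of 1 probe set per gene. Bright genes therefore weigh most in a sum, which does not show that each gene of the list moved. Array brightness differed within studies, with mean deposited intensities of 159 to 454 in the PB and PCN study, 93.3 to 417 in the D3T study, 192 to 295 in the 3-week PFOS study, 246 to 384 in the PFOA and PFOS study and 317 to 614 with Wy-14643. An array of a vehicle rat (male, 6 h) carried values displaced by 1 row in 37 of 88 windows of 100 probe sets and was left out. All 9 hepatocyte markers measured on each array type were above the floor, so the liver label held. The Csf1r probe set of the older array was at the floor on 80 of 89 arrays of the PB and PCN study and on all 4 of the 3-week PFOS study. An Aif1 probe set (U33471_at) was at the floor on 63 of the 89. Neither probe set could show a lower level in most rats.

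Within the PB and PCN study, Clec4f, both C1qb probe sets and 2 of 3 Aif1 probe sets varied together from rat to rat inside a group, and Cd14 did not follow them. Over 89 arrays, the deviations of Clec4f from its group mean had a Pearson r of 0.85 with those of C1qb (X71127_at) and of 0.79 with those of Aif1 (U17919_s_at). The r between the 2 probe sets of C1qb was 0.86. The r of Clec4f with the other Aif1 probe sets was 0.70 (U10894_s_at) and close to 0 (U33471_at, mostly at the floor). With C1qc it was 0.53, 0.58 and 0.17 by probe set, and with the Csf1r probe set, mostly at the floor, it was -0.05. Clec4f had an r of 0.10 and 0.01 with the 2 Cd14 probe sets, which had an r of 0.71 with each other. The scatter of deviations shows a narrow diagonal for C1qb and Aif1 and a round cloud for Cd14. All these points share 1 platform and 1 normalisation, and genes on an array share its RNA, so the coefficients are descriptions without a test.

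**Figure D1:**
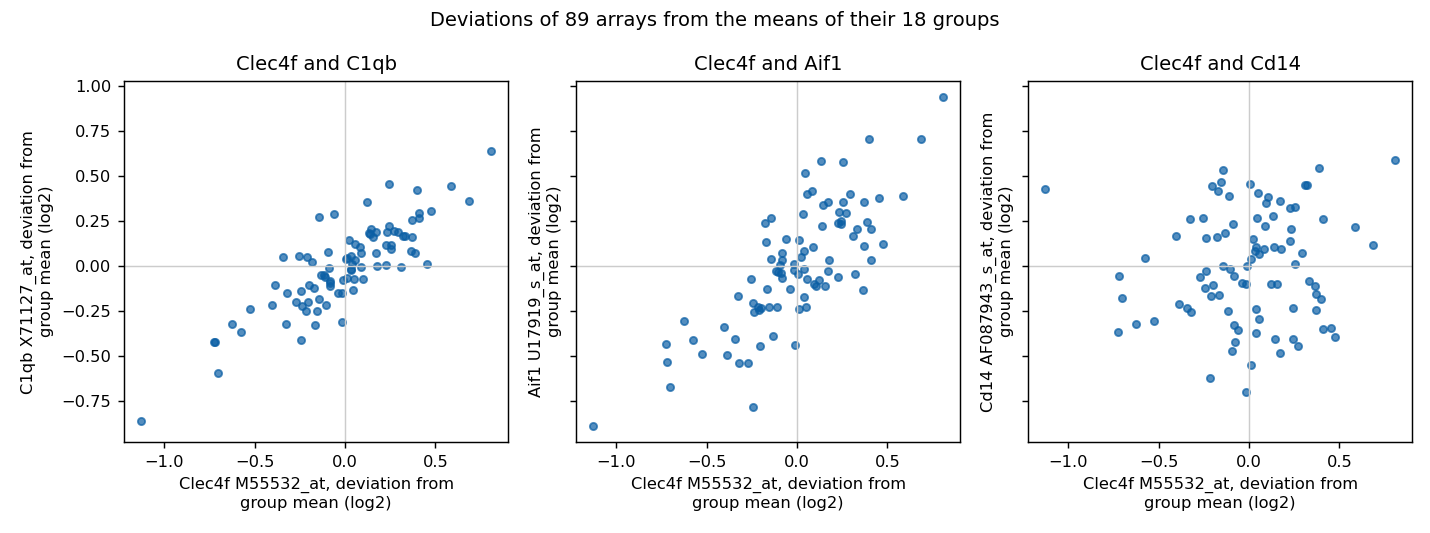
Deviation of each of 89 arrays of the PB and PCN study from the mean of its group, in log2 units, for Clec4f on the x axis against C1qb, Aif1 and Cd14 on the y axes. Each point is 1 rat, and r is 0.85 for C1qb, 0.79 for Aif1 and 0.10 for Cd14.

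Ctss, which encodes the lysosomal protease cathepsin S, was the gene most like Clec4f (r = 0.86) and most like C1qb (r = 0.88) among 4059 candidate probe sets with a mean log2 level of at least 6. It was also the second most like Aif1 (r = 0.76), after Clec4f. The genes most like Cd14 were Hp, which encodes haptoglobin (r = 0.43), Gnmt (r = 0.43) and Dyrk1a (r = 0.41), and none was a macrophage marker. For the brightest C1qc probe set of the older array the closest gene, Nedd4, had an r of only 0.41. On the Wy-14643 arrays, which carry other C1q probe sets, Clec4f had an r of 0.96 with C1qa, 0.94 with C1qc, 0.71 with C1qb and 0.85 with Csf1r over 18 rats, against -0.23 with Cd14. Cd14 thus stood apart from Clec4f on both array types. Cd68, the lysosomal glycoprotein used as a general macrophage marker, had an r of 0.42 with Clec4f there.

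The question put to PB and PCN was whether an activator of CAR or of PXR shifts the macrophage markers of the liver, in each sex and at each time. PB and PCN rats of a sex and time share their vehicle group. No marker probe set passed the test in any of the 12 comparisons with vehicle, and the smallest adjusted p was 0.078. The share of all probe sets called was 0.732% for PB and 1.88% for PCN in males at 6 h, and 2.61% for PB and 2.24% for PCN in females at 6 h. At 24 h it was 2.31% for PB and 0.572% for PCN in males, and 4.04% for PB and 3.7% for PCN in females. After 5 days it was 4.91% for PB and 4.77% for PCN in males, and 2.47% for PB and 8.43% for PCN in females. At an unadjusted p under 0.05, limma counted 0 to 4 of the 12 marker probe sets in these comparisons, the 4 being in PB females at 5 days, where 9.97% of all probe sets were under that p. Over the 12 comparisons that share was 7.81% to 18.6%. With shares this small, 0 of 12 is close to the background of each comparison. With median scaling in place of quantile normalisation, the smallest adjusted p was 0.095 (limma), for Csf1r in PB males at 5 days. In the quantile normalised data that probe set was at the floor in every PB rat there, with a vehicle mean of 4.397.

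In males after 5 days, Clec4f stood at 9.29, 9.05, 9.52, 9.48 and 9.55 in PB rats and at 9.21, 9.31, 9.47, 9.02 and 9.11 in PCN rats, against 9.74, 9.57, 9.74, 9.72 and 9.74 in vehicle rats. Every treated rat lay under every vehicle rat. This held for 1 of 12 marker probe sets with each compound, beside 3.86% of all probe sets without overlap for PB and 4.37% for PCN. The difference from vehicle was -0.32 ± 0.23 (SE, adjusted p = 0.52) for PB and -0.48 ± 0.23 (SE, adjusted p = 0.26) for PCN in limma, n = 5 each, so neither passed. Vehicle males at this time had an SD of 0.08, against 0.55 and 0.56 in vehicle males at 6 h and 24 h. The limma fit shares 1 estimate of the spread over all 18 groups.

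PB and PCN differed from each other in females after 5 days, where 3 of 12 marker probe sets were higher with PB than with PCN. Of all probe sets, 6.91% were called in that comparison, in either direction. C1qb (X71127_at) stood at 9.14, 8.84, 8.44, 8.86 and 8.98 in PB females and at 8.00, 8.26, 8.35, 7.93 and 8.36 in PCN females. The ranges did not overlap, and the difference was 0.67 ± 0.17 (SE, adjusted p = 0.005). The other C1qb probe set (X71127_g_at) was at 8.05 to 8.91 in PB females and at 6.81 to 7.92 in PCN females, with a difference of 1.15 ± 0.29 (SE, adjusted p = 0.0051). Aif1 (U17919_s_at), which encodes the actin-binding protein also called IBA1, stood at 7.42, 7.56, 6.48, 7.20 and 7.67 in PB females and at 6.41, 6.37, 6.32, 6.14 and 6.59 in PCN females. A single PB rat lay inside the PCN range. The difference was 0.90 ± 0.24 (SE, adjusted p = 0.0083), but the adjusted p was 0.065 when only these groups were fitted.

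Vehicle females had means between those of PB and PCN females, with C1qb (X71127_at) at 8.37 to 8.77 and Aif1 (U17919_s_at) at 6.38 to 7.23, and neither compound differed from them past the threshold. Against vehicle, the 12 differences were all above 0 for PB, with a median of 0.36, and 5 of 12 were above 0 for PCN, with a median of -0.34. For PB minus PCN all 12 were above 0, with a median of 0.66, where the median over all probe sets was 0. These 12 probe sets stand for 6 genes and are not independent. In PB females a single rat was above the floor for Csf1r (5.476) and a single rat for Aif1 by U33471_at (5.378). The mean of U33471_at was 4.276 in PB and 4.273 in vehicle females. The signs of these probe sets therefore carry little information. Clec4f was at 9.60 to 10.07 in PB females and at 8.99 to 9.52 in PCN females without overlap, a difference of 0.65 ± 0.23 (SE, adjusted p = 0.072) that did not pass. In all, 5 of 12 marker probe sets had no overlap between PB and PCN females, beside 5.38% of all probe sets. The other 5 differences between PB and PCN called no marker, beside 0.355% of all probe sets in males at 6 h, 6.95% in females at 6 h, 1.19% in males at 24 h, 4.47% in females at 24 h and 3.08% in males at 5 days. At an unadjusted p under 0.05, limma counted 0 or 1 marker probe set in each of these 5, and 6.46% to 18.5% of all probe sets.

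Other genes of the same cells were read from lists. Among 12 further macrophage genes measured, 3 were higher with PB than with PCN in these females and none was lower: Lyz2 (lysozyme, 0.96 ± 0.24), Ctss (0.92 ± 0.25) and Hpgds (haematopoietic prostaglandin D synthase, 0.64 ± 0.19, SE of limma, adjusted p = 0.02). The median of this list was 0.43, against 0 over all genes. Of 7 MHC class II genes, which antigen-presenting cells use, 2 were higher (RT1-DMb and RT1-Db1). Lists of endothelial, stellate and lymphoid genes had no member past the threshold. The red cell genes Hbb (-0.88) and Hbb-b1 (-0.87) were lower with PB than with PCN, and the summed level of 4 red cell genes had a range of 1880 to 4430 intensity units in PB females and 3953 to 7923 in PCN females. The part of blood content in the marker result was not tested.

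The effect of PB or PCN was not shown to differ between the sexes for any marker. None of the 12 probe sets passed in the 6 interaction tests of females minus males, where 1.02% (PB, 6 h), 0.0458% (PCN, 6 h), 0.0114% (PB, 24 h), 0.0229% (PCN, 24 h), 0.103% (PB, 5 days) and 0.606% (PCN, 5 days) of all probe sets were called. For PB after 5 days all 12 interaction values were above 0, with a median of 0.60, and 3 had an unadjusted p under 0.05 in limma, as did 7.24% of all probe sets. The 12 include Csf1r and Aif1 (U33471_at), which were mostly at the floor.

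Cd14, the lipopolysaccharide co-receptor, varied by group in another way than the other markers. Among the 18 groups, its lowest mean was 8.02 ± 0.28 in vehicle females at 6 h and its highest 9.45 ± 0.41 in PB males at 5 days (SD, n = 5 each, AF087943_s_at). In vehicle rats at 6 h it had a range of 7.69 to 8.44 in females and 8.49 to 8.95 in males. At 24 h the ranges were 8.18 to 8.54 in vehicle females and 8.93 to 9.36 in vehicle males. The sexes did not overlap at either time, but they did at 5 days, with 8.36 to 9.12 in females and 8.68 to 9.32 in males. This contrast of vehicle groups was not tested. For Clec4f the lowest group mean was 9.11 ± 0.43 in PB females at 24 h and the highest 9.85 ± 0.17 in PB females at 5 days (SD, n = 5 each). The lowest Aif1 (U17919_s_at) mean, 6.36 ± 0.16, and the lowest C1qb (X71127_at) mean, 8.18 ± 0.20, were both in PCN females at 5 days. Neighbouring groups in these orders differed by less than the pooled SD within groups, which was 0.36 for Clec4f, 0.38 for Aif1, 0.27 for C1qb and 0.34 for Cd14.

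**Figure D2:**
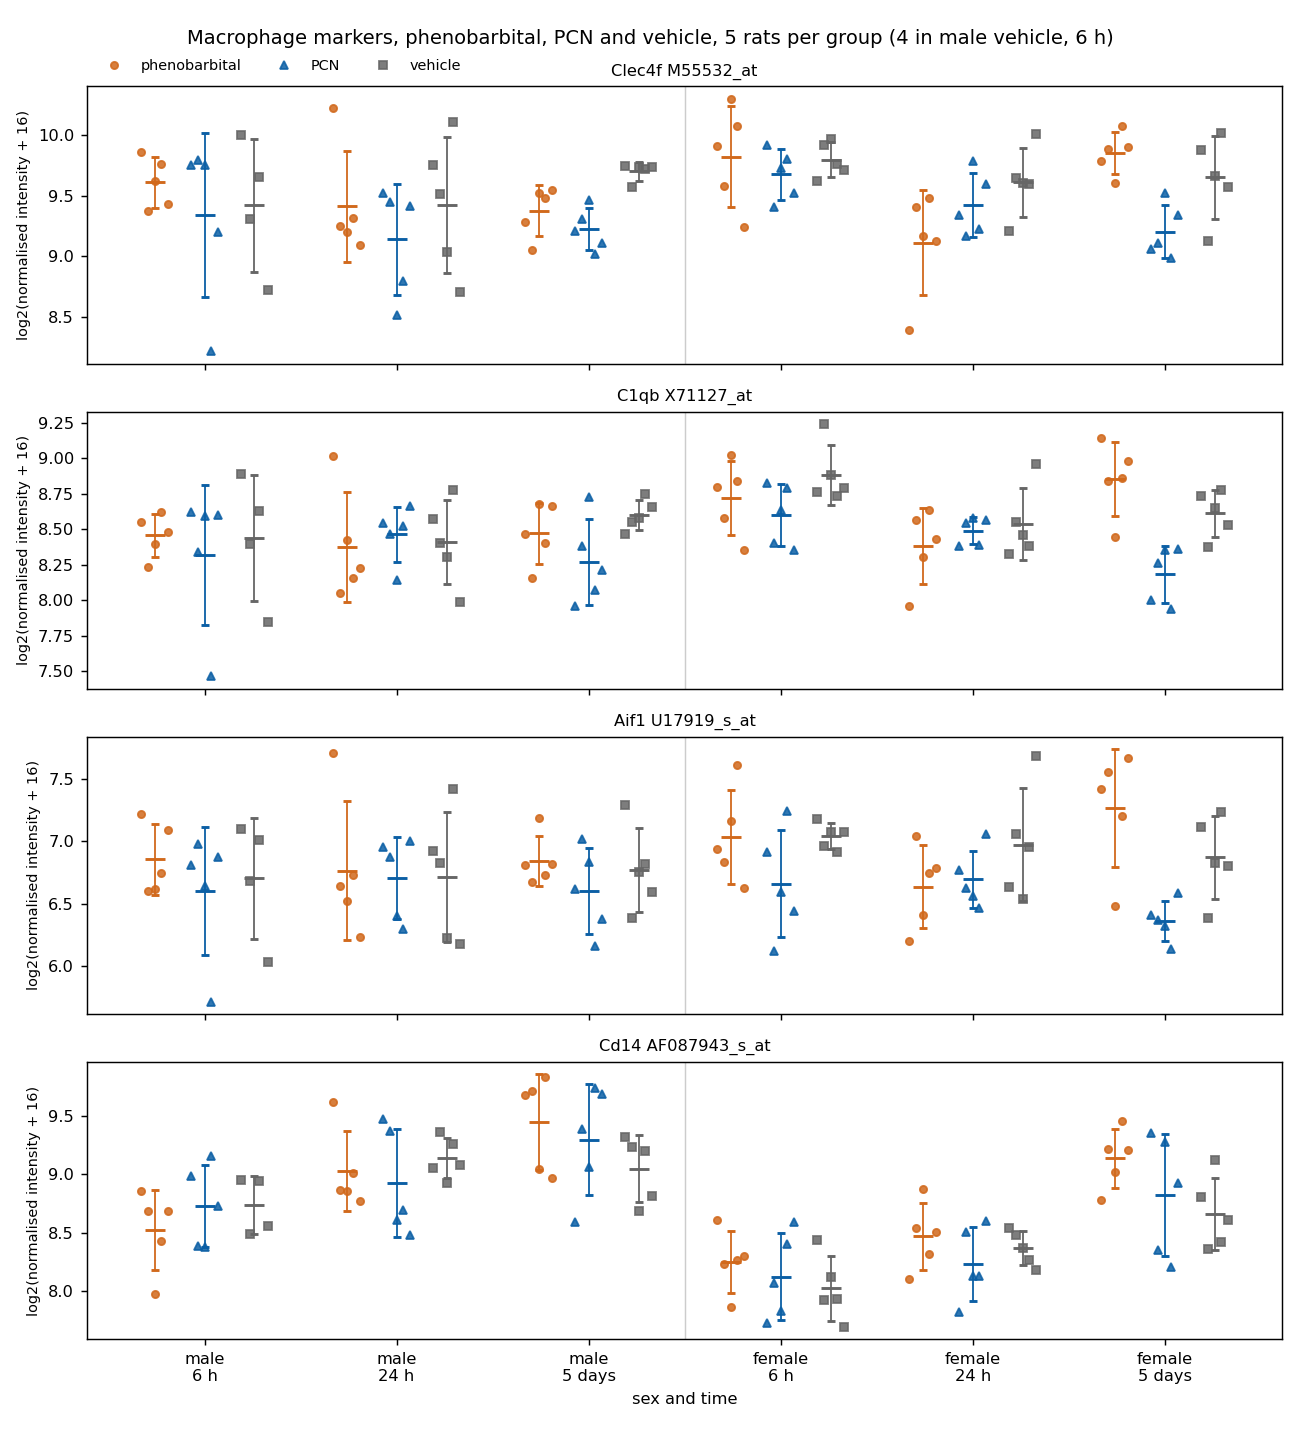
Levels of Clec4f, C1qb, Aif1 and Cd14 as log2(normalised intensity + 16) in the 18 groups of the PB and PCN study, by sex and time. Points are rats, and bars are the mean and SD. In females at 5 days the PB rats reach 9.14 for C1qb while the PCN rats end at 8.36, and Cd14 is lowest in females at 6 h.

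In the D3T study, 5 of 12 marker probe sets, for Clec4f, Aif1 and C1qb, were lower on the D3T diet and none was higher, beside 12.6% of all probe sets called. Clec4f stood at 7.90, 8.40, 8.26 and 7.96 in D3T rats, against 9.04, 8.97, 8.91 and 9.35 in control rats. No D3T rat reached the level of any control rat. The difference was -0.94 ± 0.15 (SE, adjusted p = 0.011, limma, n = 4 each). In all, 5 of 12 marker probe sets had no overlap between the diets, beside 19.5% of all probe sets. C1qb was lower by both probe sets, with 6.11, 6.86, 6.69 and 6.76 in D3T rats against 7.99, 8.07, 7.77 and 8.36 in control rats for X71127_g_at. That is a difference of -1.44 ± 0.20 (SE, adjusted p = 0.0075), and X71127_at gave -0.55 ± 0.11 (SE, adjusted p = 0.022). The 2 probe sets of C1qb thus agreed in sign and differed in size.

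Aif1 was lower by 2 of its 3 probe sets and not by the last. U10894_s_at stood at 5.03, 4.45, 4.37 and 4.66 in D3T rats, against 5.82, 6.62, 6.16 and 6.71 in control rats (-1.70 ± 0.25, SE, adjusted p = 0.0084). The size of this difference near the floor depended on the added constant, being -2.81 with a constant of 1 and -0.82 with 64. U17919_s_at gave -1.02 ± 0.20 (SE, adjusted p = 0.02). U33471_at stood at 6.71, 7.43, 7.10 and 7.41 in D3T rats, against 4.00, 5.72, 4.00 and 7.60 in control rats, which overlapped and did not pass (adjusted p = 0.24). Leaving out D3T rat 1 or control rat 2 took U17919_s_at to an adjusted p of 0.058 and 0.057. Leaving out D3T rat 2, control rat 3 or control rat 4 took X71127_at to 0.054, 0.067 and 0.052.

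Cd14 did not follow these genes. Its 2 probe sets differed by 0.42 ± 0.19 (SE, adjusted p = 0.22) and 0.35 ± 0.14 (SE, adjusted p = 0.16), both above 0 and neither past the threshold. AF087943_s_at stood at 8.19, 8.51, 8.47 and 8.35 in D3T rats, against 7.49, 8.35, 8.00 and 8.00 in control rats. The groups overlapped. C1qc (rc_AA891576_s_at) gave 0.45 ± 0.23 (SE, adjusted p = 0.3), while its 2 other probe sets were at the floor in all 4 D3T rats.

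Brightness moved with diet in this study. The 4 D3T arrays had a mean deposited intensity of 93.3 to 117, and the 4 control arrays one of 276 to 417. For Clec4f the deposited values were 98.4, 114, 91.5 and 111 on D3T arrays, against 732, 1080, 656 and 908 on control arrays. For Cd14 (AF087944mRNA_s_at) they were 130, 132, 90.2 and 162 on D3T arrays, against 375, 530, 438 and 297 on control arrays. The gap in deposited intensity was wider for Clec4f than for Cd14 or for the arrays as a whole. With median scaling in place of quantile normalisation, Clec4f differed by -1.04 (adjusted p = 0.015) and the same 5 probe sets passed. With the replicate number fitted as a block in limma, Clec4f did not pass (adjusted p = 0.094). Nor did Aif1 by U10894_s_at (0.078) or C1qb by X71127_at (0.12), while U17919_s_at (0.031) and X71127_g_at (0.049) did. An effect of array brightness and one of the diet cannot be told apart, since no dim array was a control.

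Among other macrophage genes in the D3T study, 3 of 12 measured were lower and none higher: Lgals3 (galectin-3, -1.19 ± 0.14), Ctss (-1.04 ± 0.10) and Ptprc (the leukocyte phosphatase CD45, -0.97 ± 0.14, SE of limma, adjusted p = 0.0079). The list's median was -0.53, against 0 over all genes. The iron exporter Slc40a1, which Kupffer cells use to return iron from red cells, was lower by -1.14 ± 0.16. Of 5 further C1 and early complement genes, 4 were lower, among them the C1 proteases C1s (-0.88 ± 0.11) and C1r (-0.57 ± 0.11). Of 7 MHC class II genes 3 were lower (RT1-Da, Cd74 and RT1-Bb). Among genes of other cells, 1 of 5 endothelial genes was lower, Lyve1 (-1.30 ± 0.22), and 1 of 8 stellate cell genes, Col1a1 (-1.68 ± 0.09), while 1 of 10 lymphoid genes was higher, the B cell gene Cd79b (0.50 ± 0.08). The red cell gene Hbb was lower too (-0.58 ± 0.12). So were the hepatocyte genes Fgb (-0.64 ± 0.09), Serpina1 (-0.315 ± 0.045) and Apoa1 (-0.149 ± 0.035), the last 2 of which turned above 0 with median scaling. The summed level of 12 further macrophage genes had a range of 973 to 1119 intensity units in D3T rats and 1734 to 1850 in control rats. That of 5 endothelial genes had a range of 127 to 229 in D3T rats and 296 to 341 in control rats, and that of 8 stellate cell genes one of 712 to 1029 in D3T rats and 1081 to 1457 in control rats. The part of these other cells in the marker result was not tested.

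**Figure D3:**
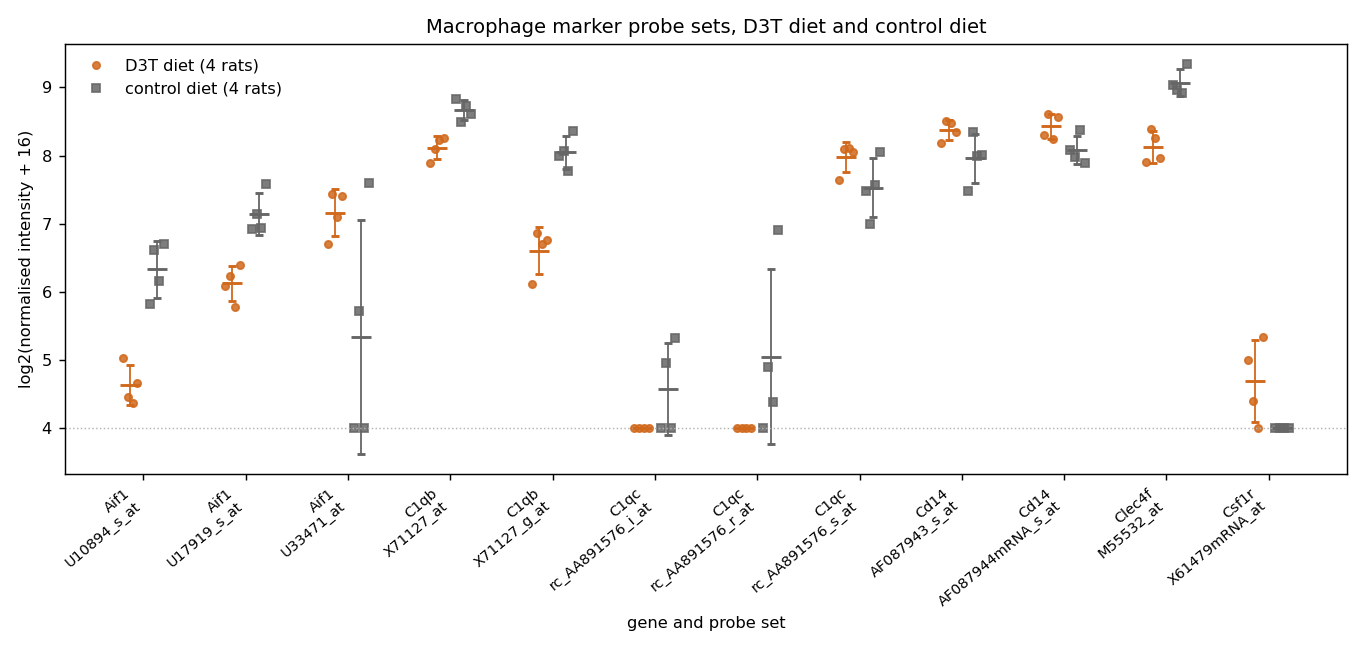
Level of each of the 12 marker probe sets as log2(normalised intensity + 16) in 4 D3T rats and 4 control rats. Points are rats, bars are the mean and SD, and the dotted line is the floor of 4.00. The groups are apart for Clec4f, for both C1qb probe sets and for 2 Aif1 probe sets, and overlap for Cd14. Of all probe sets, 19.5% had no overlap.

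In males given perfluorinated acids, Cd14 was the marker that passed, for each compound. Cd14 stood at 9.14, 9.21 and 9.11 in PFOA rats and at 9.16, 9.42 and 9.86 in PFOS rats, against 10.87, 10.82 and 10.73 in vehicle rats. All 6 treated rats lay under all 3 vehicle rats. The difference was -1.65 ± 0.16 (SE, adjusted p = 0.0048) for PFOA and -1.33 ± 0.16 (SE, adjusted p = 0.034) for PFOS in limma, n = 3 each. These were 1 of 10 marker probe sets for PFOA, beside 6.05% of all probe sets called, and 1 of 10 for PFOS, beside 0.461%. Without overlap with vehicle were 4 of 10 for PFOA, beside 24.6% of all probe sets, and 2 of 10 for PFOS, beside 16.9%. Both compounds share their vehicle group and their doses differ, so PFOA and PFOS were not tested against each other.

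For PFOA the Cd14 result passed under every alternative run, with adjusted p from 0.0021 to 0.026. For PFOS it did not. With median scaling, which places the brighter probe sets of PFOS arrays 0.19 higher than vehicle, the difference was -1.02 (adjusted p = 0.067), and with only PFOS and vehicle fitted the adjusted p was 0.12. Leaving out the vehicle rat given first, second or last above, or the middle PFOS rat, gave adjusted p of 0.1, 0.11, 0.093 and 0.099. The share of higher calls among all calls for PFOS was 61.5% in the quantile normalised data and 77.8% with median scaling.

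Clec4f and C1qa had lower means in PFOA rats than in vehicle rats without passing the test. Clec4f stood at 10.52, 11.29 and 10.84 in PFOA rats and at 11.59, 11.71 and 11.19 in PFOS rats, against 11.47, 12.06 and 11.81 in vehicle rats. PFOA rats did not overlap vehicle rats, with a difference of -0.90 ± 0.25 (SE, 95% interval -1.49 to -0.30, adjusted p = 0.096). For PFOS the difference was -0.28 ± 0.25 (SE, adjusted p = 0.74), and its sign turned to 0.16 with median scaling. C1qa stood at 9.73, 10.20 and 9.23 in PFOA rats and at 10.29, 10.03 and 9.68 in PFOS rats, against 10.29, 10.54 and 10.59 in vehicle rats. The differences were -0.76 ± 0.27 (adjusted p = 0.17) for PFOA and -0.48 ± 0.27 (SE, adjusted p = 0.57) for PFOS.

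Cd68 was -0.97 ± 0.40 (SE, adjusted p = 0.24) with PFOA, its groups overlapping. The haemoglobin scavenger receptor Cd163, measured in this study alone, stood at 7.71, 7.71 and 7.93 in PFOA rats and at 7.54, 8.58 and 8.38 in PFOS rats, against 6.94, 8.39 and 7.82 in vehicle rats. Its differences were 0.07 (95% interval -0.92 to 1.05) and 0.45 (95% interval -0.53 to 1.44). Over the 10 probe sets, 1 difference was above 0 for each compound, which was that of Cd163, and the median was -0.65 for PFOA and -0.37 for PFOS. C1qb varied most between rats of a group here, with an SD of 1.14 in PFOA rats, 1.53 in PFOS rats and 0.62 in vehicle rats. At an unadjusted p under 0.05, limma counted 4 of the 10 probe sets for PFOA, beside 20.3% of all probe sets, and 1 for PFOS, beside 12%. The count for PFOS is near that background.

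**Figure D4:**
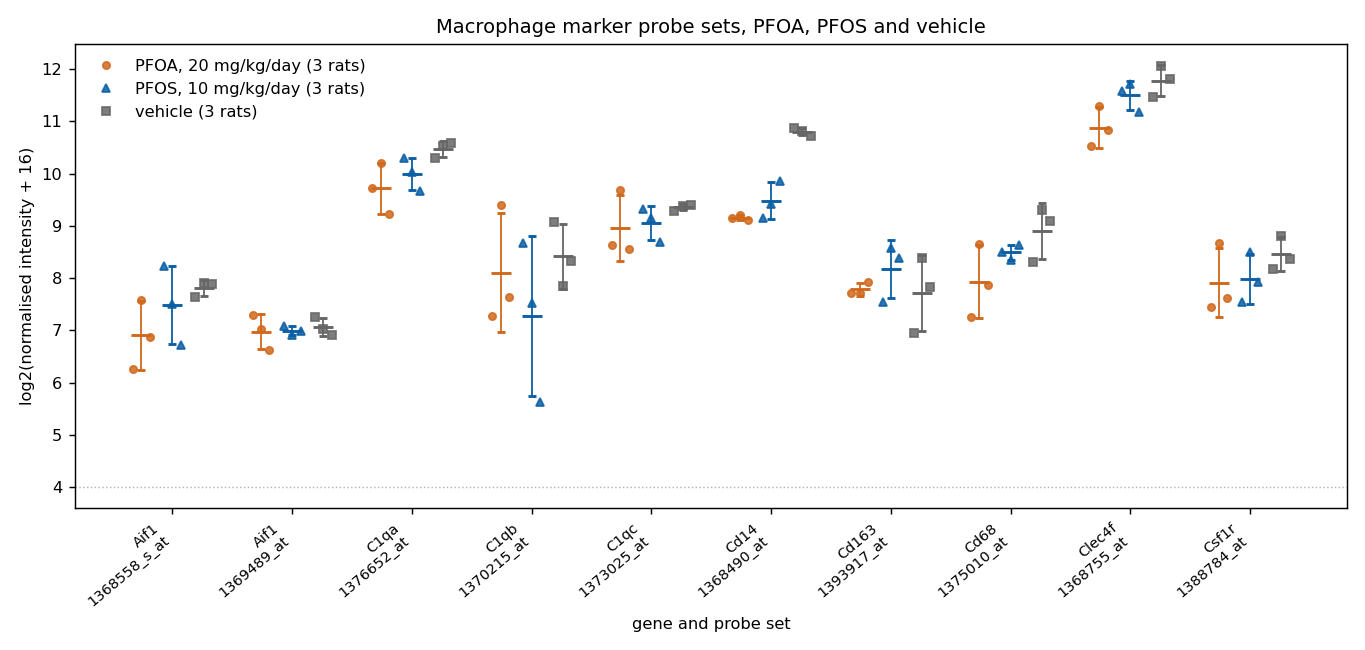
Level of each of the 10 marker probe sets as log2(normalised intensity + 16) in PFOA, PFOS and vehicle rats, 3 rats each. Points are rats, and bars are the mean and SD. For Cd14 all PFOA and PFOS rats are at 9.86 or less and all vehicle rats at 10.73 or more.

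Of 23 further macrophage genes measured, none passed with PFOA, where the list's median was -0.74, and none with PFOS, where it was -0.18. The median over all genes was 0 in both. Genes of the lipopolysaccharide and NF-kB list, to which Cd14 is related by function, had 1 member called with PFOA, the chemokine Cxcl1 (-2.33 ± 0.46), and none of 19 with PFOS. Of 9 genes of the CSF1 axis and haemoglobin scavenging, 1 was lower with PFOA, Slc40a1 (-1.11 ± 0.21), and 1 higher, the biliverdin reductase gene Blvrb (0.91 ± 0.19). Of 5 complement genes 2 were lower, C1s (-1.14 ± 0.20) and C4bpa (-0.63 ± 0.11). Among genes of other liver cells, 2 of 8 endothelial genes were lower with PFOA, Kdr (-1.83 ± 0.24) and Tek (-1.10 ± 0.20), as were 2 of 10 stellate cell genes, Lrat (-1.73 ± 0.29) and Col3a1 (-0.69 ± 0.13). The bile duct gene Epcam, 1 of 5 of its list, was higher (1.28 ± 0.15, SE of limma, adjusted p = 0.0087), and the summed level of the 5 bile duct genes had a range of 775 to 881 intensity units in PFOA rats and 306 to 435 in vehicle rats. The summed level of 8 endothelial genes had a range of 3071 to 3486 intensity units in PFOA rats, 3511 to 4576 in PFOS rats and 4759 to 5997 in vehicle rats. The summed level of the 9 markers had a range of 3907 to 6829 in PFOA rats, 5479 to 6949 in PFOS rats and 7914 to 9995 in vehicle rats, and their part in each other's result was not tested.

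In the 3-week study of PFOS at 5 mg/kg in females, no marker passed, and 0% of all 8740 probe sets did. At an unadjusted p under 0.05, limma counted 421 of all probe sets and 0 of the 12 markers, with 2 rats per group. Clec4f stood at 9.15 and 9.45 in PFOS rats, against 9.41 and 10.11 in vehicle rats. C1qb (X71127_g_at) stood at 7.57 and 7.96 in PFOS rats, against 8.25 and 9.13 in vehicle rats, a difference of -0.93 whose 95% interval ran from -2.48 to 0.62. The median of the 12 differences was -0.34, against 0 over all probe sets, and 3 of the 12 had no overlap between the groups, beside 19.2% of all probe sets. Cd14 (AF087943_s_at) stood at 7.88 and 8.93 in PFOS rats, against 8.41 and 8.89 in vehicle rats, and its groups overlapped.

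With Wy-14643, no marker passed on day 1, Aif1 was lower on day 3, and Csf1r, C1qa and Cd14 were lower on day 7. On day 1 this was 0 of 9, beside 11.5% of all probe sets called, and 1 had an unadjusted p under 0.05 in limma, beside 24.1% of all probe sets. That was C1qb, at 9.08, 8.81 and 9.33 in Wy-14643 rats against 7.53, 8.48 and 8.25 in vehicle rats (0.98 ± 0.42, SE, adjusted p = 0.16). On day 3, 1 of 9 passed, beside 10.8%, so the count of that day is near the background. On day 7, 3 of 9 passed, beside 13.1%. The median over the 9 differences was 0.27 on day 1, -0.78 on day 3 and -0.77 on day 7, against 0 over all probe sets each day.

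On day 3 Aif1 was lower by 1 of its 2 probe sets, at 6.09, 5.92 and 6.32 in Wy-14643 rats against 7.05, 6.74 and 7.58 in vehicle rats. The difference was -1.01 ± 0.29 (SE, adjusted p = 0.04, limma, n = 3 each). Its call was lost when only the groups of day 3 were fitted (adjusted p = 0.11), without vehicle rat 26 (0.078) or 29 (0.15), and without Wy-14643 rat 06 (0.08), 07 (0.14) or 08 (0.067). The other Aif1 probe set gave -0.16 ± 0.08 (SE, adjusted p = 0.22). Clec4f stood at 9.78, 9.16 and 9.57 in Wy-14643 rats, against 10.65, 10.29 and 11.09 in vehicle rats. These did not overlap, and the difference of -1.17 ± 0.42 (SE, adjusted p = 0.098) did not pass. In all, 6 of 9 probe sets had no overlap between the groups on day 3, beside 28.3% of all probe sets.

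On day 7 Csf1r, C1qa and Cd14 were lower. Csf1r, the receptor on which Kupffer cells depend, stood at 7.29, 7.28 and 7.39 in Wy-14643 rats, against 7.67, 8.23 and 8.15 in vehicle rats (-0.69 ± 0.17, SE, adjusted p = 0.017). C1qa stood at 8.18, 8.21 and 7.94 in Wy-14643 rats, against 8.51, 9.64 and 9.25 in vehicle rats (-1.03 ± 0.27, SE, adjusted p = 0.023). Cd14 stood at 10.20, 9.22 and 10.02 in Wy-14643 rats, against 10.92, 10.55 and 10.67 in vehicle rats (-0.90 ± 0.26, SE, adjusted p = 0.039). None of these 3 overlapped between groups, and 4 of the 9 probe sets had no overlap, beside 26.6% of all probe sets. Clec4f was at 8.75, 9.14 and 8.95 in Wy-14643 rats, against 9.14, 11.03 and 10.34 in vehicle rats, with a difference of -1.23 ± 0.42 (SE, adjusted p = 0.076) that did not pass. Without vehicle rat 34 or vehicle rat 35, 0 of 9 probe sets passed on day 7, and without Wy-14643 rat 13 or rat 14, 1 did. Without vehicle rat 34 the differences were -0.59 for Csf1r (adjusted p = 0.069), -0.77 for C1qa (0.091) and -0.98 for Cd14 (0.061). With only the groups of day 7 fitted none passed, with adjusted p of 0.099 for Csf1r, 0.16 for C1qa and 0.18 for Cd14.

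The vehicle mean of Clec4f varied between the days of this study, a contrast that was not tested. Clec4f had a vehicle mean of 9.61 ± 0.58 on day 1, 10.67 ± 0.40 on day 3 and 10.17 ± 0.96 on day 7 (SD, n = 3 each), and Wy-14643 means of 9.88 ± 0.35, 9.50 ± 0.31 and 8.95 ± 0.20 on the same days. Cd14 had vehicle means of 10.90, 10.78 and 10.71 and Wy-14643 means of 10.39, 10.37 and 9.81. The difference between treated and vehicle rats on day 7 minus that on day 1 was -1.49 ± 0.59 for Clec4f (SE, adjusted p = 0.25), -1.26 ± 0.38 for C1qa (adjusted p = 0.12) and -1.78 ± 0.59 for C1qb (SE, adjusted p = 0.16). None of 9 passed, beside 1.87% of all probe sets, while 6 had an unadjusted p under 0.05 in limma, beside 15% of all probe sets. Without vehicle rat 33 of day 7, 2 of 9 passed. A change of effect with time was therefore not shown at this size.

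**Figure D5:**
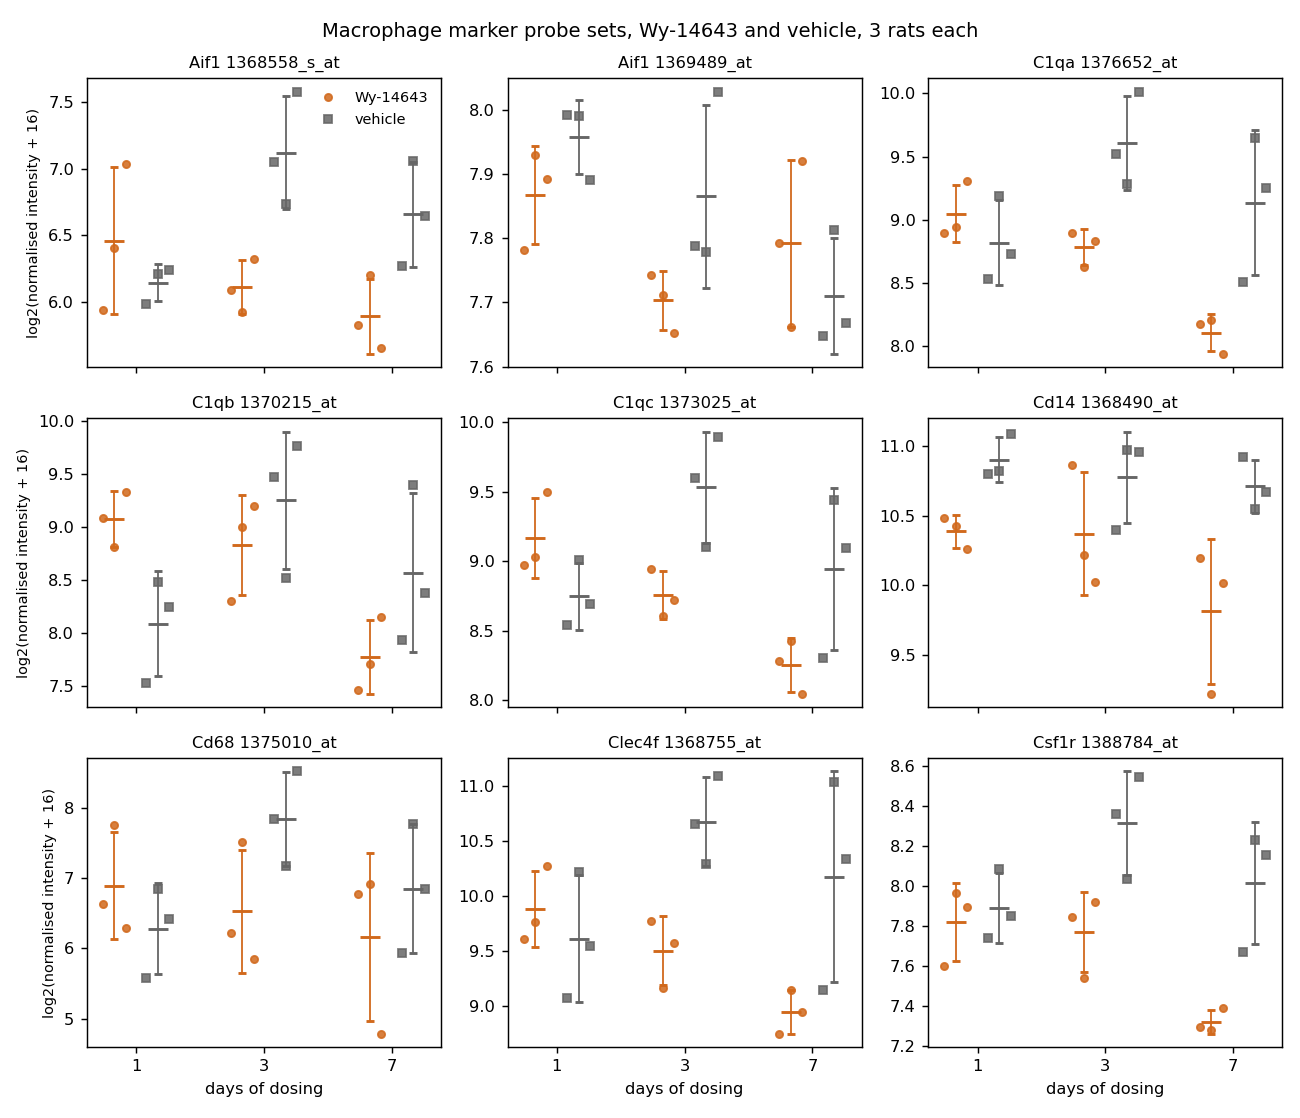
Level of each of the 9 marker probe sets as log2(normalised intensity + 16) in Wy-14643 and vehicle rats after 1, 3 and 7 days, 3 rats each. Points are rats, and bars are the mean and SD. For Csf1r on day 7 all Wy-14643 rats are at 7.39 or less and all vehicle rats at 7.67 or more, and the vehicle level of Clec4f has its highest mean, 10.67, on day 3.

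Of 18 further macrophage genes, none passed on day 1 of Wy-14643, 3 were lower on day 3 and 4 on day 7, and none was higher. Lgals3 was at 8.22 ± 0.09 in Wy-14643 rats and 8.87 ± 0.11 in vehicle rats on day 3, and at 7.82 ± 0.12 in Wy-14643 rats and 8.57 ± 0.04 in vehicle rats on day 7 (SD, n = 3 each). Its differences were -0.65 ± 0.08 (SE, adjusted p = 0.00036) and -0.75 ± 0.08 (SE, adjusted p = 8.6e-05) in limma. Ptprc and the chemokine receptor gene Cx3cr1 were lower on both days as well, and Fcer1g, the common Fc receptor chain, on day 7. The difference of Lgals3 on day 7 minus that on day 1 was -0.68 ± 0.12 (SE, adjusted p = 0.0091), the only gene of this list to pass that test. Beyond macrophages, the list of C1 and early complement genes, made largely by hepatocytes, had 4 of 5 lower on day 1 and 5 of 5 lower on days 3 and 7, led by C1s (-2.10 ± 0.23) and C1r (-2.02 ± 0.26) on day 7. C1s and C1r were lower on day 1, when no C1q gene passed the test.

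Genes of other cell types moved in both directions on days 3 and 7 in the same rats. Lower on both days were 1 of 12 lymphoid genes, Nkg7 of natural killer cells (-1.60 and -1.89), and 2 of 10 stellate cell genes, Pdgfrb (-0.56 and -0.70) and Reln (-0.62 and -0.58). Of 3 red cell genes, 1 was lower on day 3 and 2 on day 7, with Hbb at -0.61 and -0.85. Higher were Epcam of the bile duct on day 7 (0.91 ± 0.20), 1 of 4 of its list, and Hnf4a of hepatocytes on days 3 and 7 (0.70 and 0.69), while 3 of 9 hepatocyte genes were lower on day 3 and 2 on day 7. The T cell genes Cd3d, Cd3g, Cd8a and Lck were at the floor on all 18 arrays. The summed level of the 8 markers had a range of 2362 to 2741 intensity units in Wy-14643 rats and 3768 to 6377 in vehicle rats on day 7, and that of 3 red cell genes a range of 5687 to 8140 in Wy-14643 rats and 11186 to 15035 in vehicle rats. Wy-14643 arrays had mean deposited intensities of 410 to 614 and vehicle arrays 317 to 486. The part of blood content, of other cells or of array brightness in the marker result was not tested.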

How the data were processed

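Liver RNA of 129 rats was measured on 3 types of Affymetrix array. The values are intensity per probe set as deposited, on a linear scale and with values below 0. How the authors computed them is not given in the sources used here. In every study but the 3-week PFOS one, the medians of the arrays differed by more than 0.5 on the log2 scale, and the arrays were quantile normalised within the study. Values below 0 were set to 0, 16 was added and log2 was taken. Group means were fitted per study with limma 3.58.1 (R 4.3.3; lmFit, eBayes), two-sided, with Benjamini-Hochberg adjustment over all probe sets other than controls. The method was run on simulated data with random noise, without a floor and without differences in array brightness. That run does not bear on either limit. Probe sets were named from GEO's platform annotation. The markers, lists and tests were chosen with earlier results of these data known, which includes the rule for named genes: every marker, up to 3 called genes per list, and the 3 genes most alike. Labels name separate rats, and their number limits the precision. Another constant, scaling, filter and moderation, fits of only the groups compared, a replicate block and each rat left out were alternatives.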

Additional observations from a re-analysis of the deposited data

Results flagged for a closer look

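Of 240 sets of 4 or 5 rats (1 group, 1 probe set), 20 had a highest or lowest rat far from the others by Dixon's criterion, which chance meets in about 1 in 20 groups. Sets with every rat at the floor count among the 240 but could not be flagged. That rate is therefore no yardstick for the 20. All values are log2 levels. Clec4f was 9.567 in a vehicle male at 5 days (others 9.719 to 9.741). A PB male at 24 h had the highest Clec4f of its group, 10.221 (others 9.091 to 9.311), together with the highest C1qb (X71127_g_at), 8.866 (others 7.256 to 7.624), and Cd14 (AF087943_s_at), 9.62 (others 8.775 to 9.015). A PCN male at 6 h had the lowest Aif1 (U17919_s_at), 5.716 (others 6.638 to 6.98), and the lowest C1qb by both probe sets, 7.463 (others 8.336 to 8.617) and 6.329 (others 7.887 to 8.493). A PB male at 5 days had the highest Aif1 (U17919_s_at), 7.183 (others 6.677 to 6.814), with C1qc (rc_AA891576_r_at) at the floor of 4 (others 5.431 to 5.825) and Cd14 (AF087944mRNA_s_at) at 8.107 (others 9.063 to 9.411).

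Aif1 (U10894_s_at) was 6.799 in a vehicle female at 6 h (others 6.371 to 6.486). C1qc (rc_AA891576_s_at) was 6.385 in a PCN female at 6 h (others 7.163 to 7.346) and 7.64 in a D3T rat (others 8.058 to 8.116). In the other 7 sets every rat but 1 was at the floor. The exception had a Csf1r level of 4.916 (PB female, 6 h), 5.476 (PB female, 5 days), 4.345 (PCN male, 24 h), 4.074 (PCN male, 5 days) and 4.244 (PCN female, 5 days), and an Aif1 (U33471_at) level of 5.378 (PB female, 5 days) and 5.363 (vehicle female, 5 days).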

How the results depend on the processing

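Over all 32 comparisons, every called marker probe set kept its call with trend and robust moderation and with a constant of 64. The same held in the 24 of the PB and PCN study with the left-out array kept. Comparisons that called no marker called none in these runs, while a small rise in another count was read as no change. In males at 5 days, 1 probe set passed for PB with a constant of 1, and 1 for PCN with only the groups compared. The PFOS count at 10 mg/kg/day was 0 with median scaling and 0 with only the groups compared. For Wy-14643 on day 3 it was 3 with the lowest 33.3% of probe sets left out and 0 with only the groups compared, and on day 7 it was 0 with only the groups compared. Leaving out each rat in turn gave 0 to 1 for PB and 0 to 1 for PCN in males at 5 days, 0 to 1 for PFOS, 0 to 2 for Wy-14643 on day 3, 0 to 4 on day 7 and 0 to 2 for day 7 minus day 1. With the replicate block the D3T count was 2. Same-numbered rats had correlations of 0.266, -0.078, -0.095 and -0.205. Nothing in the labels says that the numbers pair rats, and so few correlations cannot decide it. With median scaling, 3 bright hepatocyte products reversed with D3T, Hpx to 0.79, Serpina1 to 0.787 and Apoa1 to 0.673. The cause of these changes was not tested. Over all probe sets, the share of higher calls among all calls moved by over 10 points with median scaling, set against quantile normalisation, in these comparisons beside that of PFOS. It was 96.3% against 84.4% for PB males at 6 h, 82.1% against 69.5% for PCN males at 6 h, 76.5% against 58.1% for PB minus PCN in males at 6 h, 94% against 82% for PCN males at 24 h, 73.2% against 57.2% for PB females at 24 h, 66.7% against 100% for the PCN sex interaction at 24 h. It was further 62.7% against 52.2% for PB males at 5 days, 74.8% against 61.4% for PCN males at 5 days, 69.1% against 58.8% for PB females at 5 days, 67.2% against 51.8% for Wy-14643 on day 1 and 41.3% against 56.2% for Wy-14643 day 7 minus day 1. Some of these shares rest on few calls. The PCN sex interaction at 24 h had 3 calls against 2, and PB minus PCN in males at 6 h had 17 against 31. Signal at the floor limits Csf1r, U33471_at and 2 C1qc probe sets on the older array.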
